A study of Mus musculus with 6 samples.

Results

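The genes described here encode the subunits of the receptors for the fast transmitters of the brain: the AMPA, kainate, NMDA and delta receptors and the metabotropic receptors for glutamate, the GABA-A and GABA-B receptors, and the glycine receptors. They were taken by symbol from the deposited gene count table, by a rule that uses no measured value, though with earlier results of these data known, and number 52 of 37411 gene rows. Of the 52 genes, 41 had enough counts to be tested, among 16233 genes tested in all. RNA was sequenced from primary hippocampal neurons of CD-1 IGS mice, prepared from P0 pups and kept 16 days in vitro. The 3 libraries of one group (1, 2 and 3) came from cultures given dimethyl sulfoxide (DMSO), the solvent, and the 3 libraries of the other (4, 5 and 6) from cultures given 50 µM forskolin, each for 30 min. Forskolin activates adenylyl cyclase and so raises cyclic AMP. The labels give no genotype change, batch or pairing, and do not say whether libraries of a group came from separate preparations, so that p-values measure only the spread between these libraries.

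Ionotropic glutamate receptors are tetramers that open a cation pore when glutamate binds. AMPA receptors carry most of the fast excitatory current, NMDA receptors need the GluN1 subunit (Grin1) together with GluN2 or GluN3 subunits, and kainate receptors combine low-affinity subunits (Grik1 to Grik3) with high-affinity ones (Grik4 and Grik5). GABA-A receptors are chloride channels of 5 subunits, usually alpha, beta and gamma, and glycine receptors are built alike. Metabotropic glutamate receptors and GABA-B receptors act through G proteins, and the GABA-B receptor is an obligate dimer of Gabbr1 and Gabbr2. In neurons many of these channels are phosphorylated by protein kinase A, the main effector of cyclic AMP, which acts on the proteins and is not measured here.

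The ionotropic glutamate receptor subunits are related proteins, and their transcripts differ widely in the share of G and C bases, a property that varied with the fold changes reported below. To give an example in the sequence itself, the longest run of residues common to all 18 of these subunits was located in the annotated coding sequences (GENCODE M21, GRCm38). It is 7 residues long. The 21 bases that encode it are given for 8 of the 18, chosen after their values were seen to show the range, with Grin2d and Gria1 as cases where this short run and the transcript differ in rank, 5′ to 3′ on the coding strand, with capitals for G or C at the last position of a codon, where a change seldom alters the residue.
Grik5: taCacGgcCaaCctGgctgcC
Grik3: taCacGgcCaaCctGgctgcC
Grin1: taCactgcCaaCctGgcagcC
Gria1: taCacagcCaaCctGgctgcC
Gria2: taCacGgctaaCttagctgcC
Grin2d: tatacagcCaatctGgctgcC
Gria4: taCactgctaatctGgctgca
Gria3: taCactgcaaaCcttgctgct
The same 7 residues were encoded with 6 codon-end G or C bases in Grik5 and Grik3, 5 in Grin1 and Gria1, 4 in Gria2, 3 in Grin2d and 2 in Gria4 and Gria3. So short a run does not stand for its gene: Grin2d, with 65.0% GC in its transcript, had 3 such bases and Grin3b, with 63.4%, had 4, no more than Gria2 with 36.8%. Over the whole coding sequence, codons ended in G or C in 80.4% of cases for Grik5, 78.5% for Grin2d, 71.3% for Grin1, 63.9% for Gria1, 48.4% for Gria2 and 47.2% for Gria4.

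Promoters are shown for 4 members: the pair that passed the test (Grin1 and Grik5), the 1 member whose forskolin levels all exceeded its DMSO levels (Gabrg1), and Gria2, an abundant member with a transcript of low GC content. Each line gives the 250 bases before the RefSeq start (GRCm38.p6, minus strand for all 4, printed 5′ to 3′). Capitals mark TGACG or its reverse complement CGTCA, the core of the element bound by the cyclic AMP response factor CREB, and the GC box GGGCGG or its reverse complement CCGCCC.
Grin1, chr2:25319188-25319437: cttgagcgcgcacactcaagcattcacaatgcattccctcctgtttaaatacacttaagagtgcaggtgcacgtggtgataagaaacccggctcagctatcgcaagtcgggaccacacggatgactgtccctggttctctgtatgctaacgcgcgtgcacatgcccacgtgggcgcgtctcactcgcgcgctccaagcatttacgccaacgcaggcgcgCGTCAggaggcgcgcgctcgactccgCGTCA
Grik5, chr7:25072370-25072619: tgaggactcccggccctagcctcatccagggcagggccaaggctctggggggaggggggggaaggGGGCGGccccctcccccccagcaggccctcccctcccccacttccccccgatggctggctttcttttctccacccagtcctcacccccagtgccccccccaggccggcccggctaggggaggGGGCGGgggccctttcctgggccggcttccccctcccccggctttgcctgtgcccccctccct
Gria2, chr3:80802836-80803085: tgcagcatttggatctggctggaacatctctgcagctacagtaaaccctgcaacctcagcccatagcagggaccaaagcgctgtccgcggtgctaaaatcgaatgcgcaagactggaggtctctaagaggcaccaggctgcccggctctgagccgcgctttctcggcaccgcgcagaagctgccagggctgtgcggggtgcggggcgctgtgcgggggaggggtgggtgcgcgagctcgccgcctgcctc
Gabrg1, chr5:70842618-70842867: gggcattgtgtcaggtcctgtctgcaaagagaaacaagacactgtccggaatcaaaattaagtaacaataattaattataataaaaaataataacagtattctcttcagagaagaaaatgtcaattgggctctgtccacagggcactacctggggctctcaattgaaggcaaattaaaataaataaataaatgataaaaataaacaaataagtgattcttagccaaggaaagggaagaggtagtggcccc
The Grin1 window held 2 copies of CGTCA and no GC box, the Grik5 window held 2 copies of GGGCGG and no CREB core, and the other two held neither. The full palindromic element TGACGTCA, which contains the core on both strands, was in 0 of the 43 windows of the 36 members that have one, against 1.55% of 32851 RefSeq windows of this length. The core was in 3 windows (6.98%), those of Grin1, Gabrr1 and Grm8, against 17.8% of all windows. The GC box was in 21 windows (48.8%), against 32.7% of all. Some genes have several windows, and these counts describe letters in a window and no more.

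The cultures held the cells their label names, and others. All 10 neuron markers were above 1 CPM (the count relative to the TMM-scaled library size) on average in the DMSO libraries, as were all 8 excitatory, 10 inhibitory and 10 astrocyte markers. Total counts ranged from 28342764 to 47548379 per library. The share of the 2 mitochondrial ribosomal RNAs ran from 14.0 to 23.7% in DMSO libraries and from 26.9 to 33.3% in forskolin libraries. The libraries of the forskolin group were unlike each other: the summed level of 12 microglia markers was 226 CPM in library 4 and 378 CPM in library 5, but 26.5 CPM in library 6 and 24.6 to 36.5 CPM in the DMSO libraries, with no marker at 0 throughout. The 10 neuron markers summed to 2830 and 3117 CPM in libraries 4 and 5, and to 4721 CPM in library 6, against 3684 to 4881 CPM in the DMSO libraries. The 8 excitatory markers summed to 926, 978 and 1374 CPM in libraries 4, 5 and 6, all below the DMSO range of 1590 to 1741 CPM. The 10 inhibitory markers summed to 406, 333 and 725 CPM, against 450 to 714 CPM under DMSO. The part of these differences in the results below was not tested except where a value without a library is given. In such bulk samples fewer neurons and less receptor RNA per neuron cannot be told apart.

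In the libraries given forskolin for 30 min no receptor subunit gene was called higher than under DMSO, and 2 were called lower. Grin1, the obligatory NMDA receptor subunit, and Grik5, a high-affinity kainate receptor subunit, were lower in the forskolin libraries. Calls used the edgeR quasi-likelihood test, Benjamini-Hochberg adjusted over 16233 genes, with a threshold of 0.05. Over all genes tested, 1.51% were called, 1.34% lower and 0.172% higher. The 2 lower calls among 41 are thus a larger share than over all genes, but a count this small cannot set the members apart, and 0 higher calls are near what all genes gave. DESeq2 called 5 members lower (Grin1, Grik5, Grm4, Grin2c and Gabbr2) and 0 higher, where it called 6.03% of all genes lower and 4.90% higher. Counting these 2, 8 members had an unadjusted p-value under 0.05, all with lower values in forskolin, and 22.3% of all genes passed that mark in either direction. The median log2 fold change (forskolin over DMSO) was -0.26 over the 41 members and 0.02 over all tested genes. The first of these medians rested on single libraries: it was -0.03 without library 4, -0.04 without library 5, -0.05 without DMSO library 3 and -0.41 without library 6. By sign, 16 members had a positive and 25 a negative fitted value, and 51.8% of all genes were positive. None of the 52 members is among the 132 genes in the authors' deposited table of this comparison.

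Grin1 had 147, 192 and 168 CPM under DMSO and 79.8, 82.7 and 86.9 CPM under forskolin, with values here and below in the order of libraries 1, 2 and 3 and then 4, 5 and 6. All 3 forskolin libraries lay close together and well below every DMSO library. The fitted log2 fold change was -1.02 ± 0.13 (SE), with an edgeR adjusted p of 0.0306. Grin1 (ENSMUSG00000026959.13) lies on the minus strand of chromosome 2, from 25291181 to 25319187 in GRCm38. An annotated antisense transcript, Grin1os, shares exon bases with it, and whether the counting used strand is not given in the sources used here.

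Grik5 had 71.2, 68.3 and 73.3 CPM under DMSO and 41.4, 44.0 and 38.7 CPM under forskolin. The spread within each group was small, and library 6 was the lowest of all. The log2 fold change was -0.78 ± 0.099 (SE; edgeR adjusted p = 0.0302). Grik5 (ENSMUSG00000003378.9) lies on the minus strand of chromosome 7, from 25009849 to 25072346 in GRCm38.

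Both calls had limits. With each library's trend on GC content removed the log2 fold change was -0.56 for Grin1 (edgeR adjusted p = 0.333) and -0.18 for Grik5 (adjusted p = 0.567), and 0 members and 0 of all genes were called, with 1917 genes at an unadjusted p-value under 0.05. Leaving out any single library other than library 6 also ended both calls, with edgeR adjusted p-values from 0.130 to 0.271 and fold changes within -1.09 to -0.90 for Grin1 and -0.79 to -0.75 for Grik5, and 0 genes in all were then called, with 1945 to 3216 at an unadjusted p-value under 0.05.

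**Figure D1:**
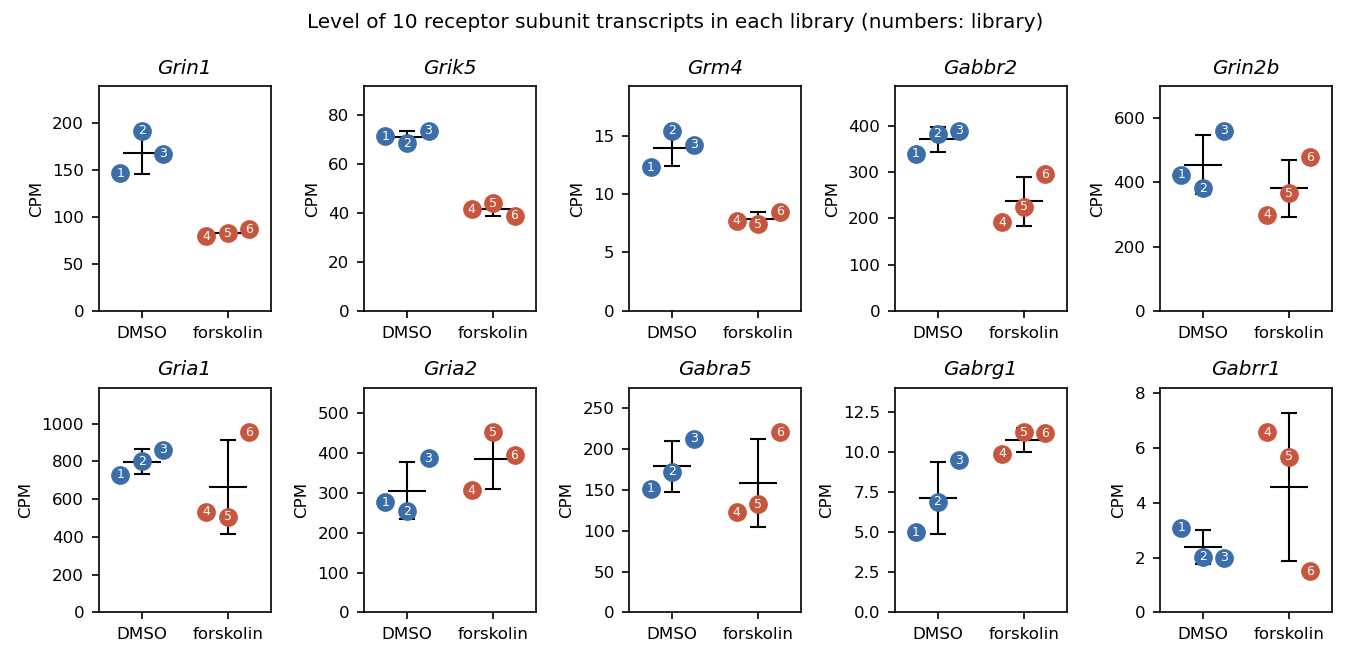
Levels of 10 receptor subunit transcripts in CPM (vertical axis from 0) in DMSO libraries 1 to 3 (blue) and forskolin libraries 4 to 6 (red); numbers inside points name the library, the bar is the group mean and the whiskers are ± SD (n = 3). Grin1, Grik5, Grm4 and Gabbr2 lay lower in all 3 forskolin libraries, Gabrg1 lay higher in all 3, and for Gria1, Gabra5 and Gabrr1 library 6 stood on the other side of the DMSO mean from libraries 4 and 5.

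The order of the levels depends on the length assigned to each transcript. Per kilobase of the longest annotated transcript, Gria1 stood first, at 132 CPM per kilobase as the mean of 6 libraries (range 91.5 to 172), and others named here in falling order were Gabbr1 at 101 (64.4 to 126), Gabra5 at 63.1 (45.9 to 82.4), Gabbr2 at 52.9 (33.3 to 67.7), Glrb at 39.9 (28.7 to 50.2), Gria2 at 33.2 (24.5 to 43.5) and Grin1 at 29.5 (18.7 to 44.9). Among these 7 genes, each neighbour overlapped the next in its range over libraries. Per kilobase of coding sequence, which leaves out the long untranslated ends, Gria1 stood at 268, Gabbr1 at 184, Gabrb1 at 172 and Gria2 at 130 CPM per kilobase. Grin2b stood at 17.4 CPM per kilobase by the first measure and 94.1 by the second, because its longest transcript runs to 24060 bases and its coding sequence to 4446. Gria1, which encodes the GluA1 subunit of AMPA receptors, was first by both.

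At the other end, 11 of the 52 members had too few counts to be tested. Gabra6, an alpha subunit of cerebellar granule cells, and Grm5, a group I metabotropic receptor, were listed at 0 counts in every library. For genes that the counting could assign, a level under 3 counts, or 0.0637 to 0.0984 CPM by library, cannot be seen at this depth. Grm5 is known as a receptor of hippocampal neurons, and whether its transcripts were lost when reads were assigned to genes was not tested, so its 0 is not a measure of its expression. Grm6, a receptor of retinal bipolar cells, had 1 count in all. Gabre, Gabrp, Gabrr2, Gabrr3, Glra1 and Glra3 had at most 6 counts in any library, Gabrq at most 25 and Glra4 at most 23.

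The NMDA receptor genes, the class with the most tested members, all lay on one side. The tested metabotropic glutamate, GABA-B and GABA-A gamma genes also lay on one side each. All 7 fitted log2 fold changes were negative, with a median of -0.79, and 4 of the 7 (Grin1, Grin2c, Grin2d and Grin3b) had forskolin libraries that all lay below every DMSO library. Across all 41 members 9 lay below in this way and 1 above, where 16.2% and 10.3% of all tested genes did (26.5% in either direction). These 9 are all among the 13 members with a transcript GC content of 50% or more. Of all 7462 tested genes in that range, 2290 lay below in the same way. Grin2c, a subunit known from cerebellum and glia, had 4.72, 7.94 and 4.74 CPM under DMSO and 2.06, 1.82 and 3.55 CPM under forskolin (log2 fold change -1.23 ± 0.36; edgeR adjusted p = 0.139). Grin2d, a subunit of early development and interneurons, had 4.84, 7.74 and 6.93 CPM and then 2.89, 2.67 and 4.63 CPM (log2 fold change -0.94 ± 0.30; adjusted p = 0.158). In both, library 6 was the nearest of the 3 to the DMSO libraries. Both values shrank once the GC trend was taken out. Grin2c then stood at -0.51 (edgeR adjusted p = 0.58) and Grin2d at -0.018 (edgeR adjusted p = 0.99). Grin3b, at 4 to 31 counts per library, was the least certain.

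The 2 main GluN2 subunits did not separate by group. Grin2b, the GluN2B subunit that predominates early in development, had 424, 382 and 560 CPM under DMSO and 300, 366 and 478 CPM under forskolin (log2 fold change -0.26 ± 0.23; edgeR adjusted p = 0.520). Grin2a, which takes over as synapses mature, had 135, 123 and 183 CPM and then 115, 136 and 160 CPM (log2 fold change -0.10; adjusted p = 0.785). The groups overlapped for each. Their proportion was steadier than either level: Grin2a made up 24.2, 24.3 and 24.7% of the summed CPM of Grin2a and Grin2b under DMSO, and 27.8, 27.1 and 25.1% under forskolin. The groups did not overlap in this share, which was higher under forskolin by 2.30 percentage points on average, and with the GC trend removed the average difference was 1.83 points. Grin3a, which lowers the calcium permeability of NMDA receptors, had a log2 fold change of -0.30 with overlapping groups.

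Among the kainate receptor genes 4 of 5 had negative fitted values, and Grik5 alone passed the test. Grik4, the other high-affinity subunit, had 46.9, 45.4 and 36.7 CPM under DMSO and 25.4, 28.5 and 38.4 CPM under forskolin, so that library 6 lay above DMSO library 3 (log2 fold change -0.48 ± 0.19; edgeR adjusted p = 0.197). Grik3 had 27.6 to 28.8 CPM under DMSO and 18.6, 22.9 and 26.8 CPM under forskolin, without overlap (log2 fold change -0.31; adjusted p = 0.281). Grik1 (-0.29) and Grik2 (0.10) overlapped between groups.

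No AMPA receptor gene separated the groups. Gria1 had 729, 801 and 860 CPM under DMSO, 533 and 507 CPM in libraries 4 and 5, and 952 CPM in library 6. Library 6 was thus the highest of all 6 and the other forskolin libraries the lowest (log2 fold change -0.26 ± 0.26; edgeR adjusted p = 0.578). Gria2, whose GluA2 subunit makes AMPA receptors impermeable to calcium, had 276, 254 and 386 CPM and then 306, 451 and 394 CPM (log2 fold change 0.33 ± 0.22; adjusted p = 0.40). Gria3 (0.22) and Gria4 (0.07) also overlapped. Gria2 made up 25.5, 22.3 and 28.1% of the summed AMPA receptor CPM under DMSO and 33.2, 42.6 and 26.6% under forskolin. The mean difference of 8.82 percentage points fell to 0.674 points with the GC trend removed, and the groups overlapped in either case. Without library 5 the difference was 4.57 points and without library 6 it was 12.6 points.

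The delta receptor gene Grid1, whose product bridges synapses through cerebellins, had 85.7, 95.6 and 101 CPM under DMSO and 56.0, 62.2 and 94.7 CPM under forskolin (log2 fold change -0.41 ± 0.21; edgeR adjusted p = 0.292). Libraries 4 and 5 lay below the DMSO range and library 6 within it.

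All 6 tested metabotropic glutamate receptor genes had negative fitted values, from -0.83 to -0.29, and edgeR called none. Grm4, a group III receptor that inhibits release at presynaptic terminals, came nearest: it had 12.3, 15.4 and 14.2 CPM under DMSO and 7.73, 7.40 and 8.48 CPM under forskolin. Its groups were well apart, with a log2 fold change of -0.83 ± 0.16 and an edgeR adjusted p of 0.0633. It was among the members that DESeq2 called lower (adjusted p = 0.00035), a fit in which GC content was not adjusted. Its edgeR log2 fold change shrank to -0.20 once the GC trend was taken out (edgeR adjusted p = 0.65). Grm2, a group II autoreceptor, was also lower in every forskolin library, at 6.5, 8.56 and 7.77 CPM against 4.44, 6.14 and 3.97 CPM (log2 fold change -0.65 ± 0.23; adjusted p = 0.182). Grm3, its group II partner found in astrocytes as well as neurons, had 17.4, 22.2 and 25.7 CPM and then 7.39, 12 and 30.6 CPM, with library 6 the highest of all. Grm7, a group III receptor of the presynaptic active zone, followed the same order, at 46.5 to 59.9 CPM in the DMSO libraries, 28.9 and 37.0 CPM in libraries 4 and 5, and 67.8 CPM in library 6.

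Both GABA-B receptor genes had negative fitted values. EdgeR called neither, and DESeq2 called Gabbr2 lower (adjusted p = 0.0288). Gabbr2, the subunit that couples to G proteins, had 340, 384 and 389 CPM under DMSO and 191, 225 and 295 CPM under forskolin (log2 fold change -0.64 ± 0.18; edgeR adjusted p = 0.133), without overlap. Gabbr1, the subunit that binds GABA, had 536, 663 and 640 CPM and then 338, 371 and 624 CPM (log2 fold change -0.46 ± 0.25; adjusted p = 0.318). Library 6 was within the DMSO range for Gabbr1 and below it for Gabbr2.

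The GABA-A receptor genes showed the opposite sign more often: 9 of the 13 tested had positive fitted values, and edgeR and DESeq2 each called 0. Gabrg1, a gamma subunit also made by astrocytes, was the 1 member whose levels under forskolin all exceeded those under DMSO, with 5.0, 6.89 and 9.45 CPM against 9.88, 11.2 and 11.1 CPM (log2 fold change 0.59 ± 0.25; edgeR adjusted p = 0.226). DMSO library 3 and library 4 nearly touched. Gabrb2 had 42.1, 47.3 and 67.5 CPM and then 54.9, 71.9 and 87.8 CPM (0.45 ± 0.24; adjusted p = 0.30).

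Among alpha subunits, Gabra5, which is enriched in hippocampus and carries tonic inhibition, had 151, 172 and 212 CPM under DMSO and 123, 132 and 220 CPM under forskolin (log2 fold change -0.17 ± 0.25; edgeR adjusted p = 0.708). Libraries 4 and 5 lay below the DMSO range and library 6 above it. Gabra4, an extrasynaptic partner of the delta subunit, had 57.2, 57.6 and 85.4 CPM and then 76, 92.1 and 85.6 CPM (0.34 ± 0.18; adjusted p = 0.311). Gabrd, the delta subunit itself, had 6.59, 5.81 and 5.86 CPM and then 5.88, 5.05 and 6.33 CPM, alike in both groups (-0.08). Gabra2 (0.20), Gabra3 (-0.32), Gabrb1 (0.35) and Gabrg3 (0.16) overlapped between groups. Gabra4 and Gabrb1 share exon bases on opposite strands, so that without strand some reads of one could be counted for the other.

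Gabrr1, a rho subunit best known from retina, differed in direction between the forskolin libraries. It had 99, 62 and 71 counts under DMSO, 309 and 193 counts in libraries 4 and 5, and 50 counts in library 6, or 3.09, 2.03 and 1.99 CPM against 6.56, 5.67 and 1.49 CPM. The fitted log2 fold change of 0.95 ± 0.53 (edgeR adjusted p = 0.329) is an average over libraries of opposite sign. Glra4, a glycine receptor subunit too low to be tested, had 5, 1 and 3 counts under DMSO and 23, 12 and 3 counts under forskolin. Both were high where the summed microglia markers were high (226 and 378 CPM in libraries 4 and 5) and low in library 6 (26.5 CPM). The 10 markers of the oligodendrocyte lineage were also highest in libraries 4 and 5, with sums of 1077 and 1560 CPM. Their sum was 647 CPM in library 6, below the DMSO range of 822 to 913 CPM. The part of either cell type in the levels of Gabrr1 and Glra4 was not tested. The remaining glycine receptor genes, Glrb, the beta subunit that binds the scaffold gephyrin, and Glra2, the fetal alpha subunit, had log2 fold changes of 0.05 and 0.12 with overlapping groups. Glrb had 86.9, 118 and 151 CPM and then 100.5, 116 and 152 CPM, and Glra2 had 10.8, 12.3 and 16.2 CPM and then 11.2, 11.9 and 19.8 CPM.

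**Figure D2:**
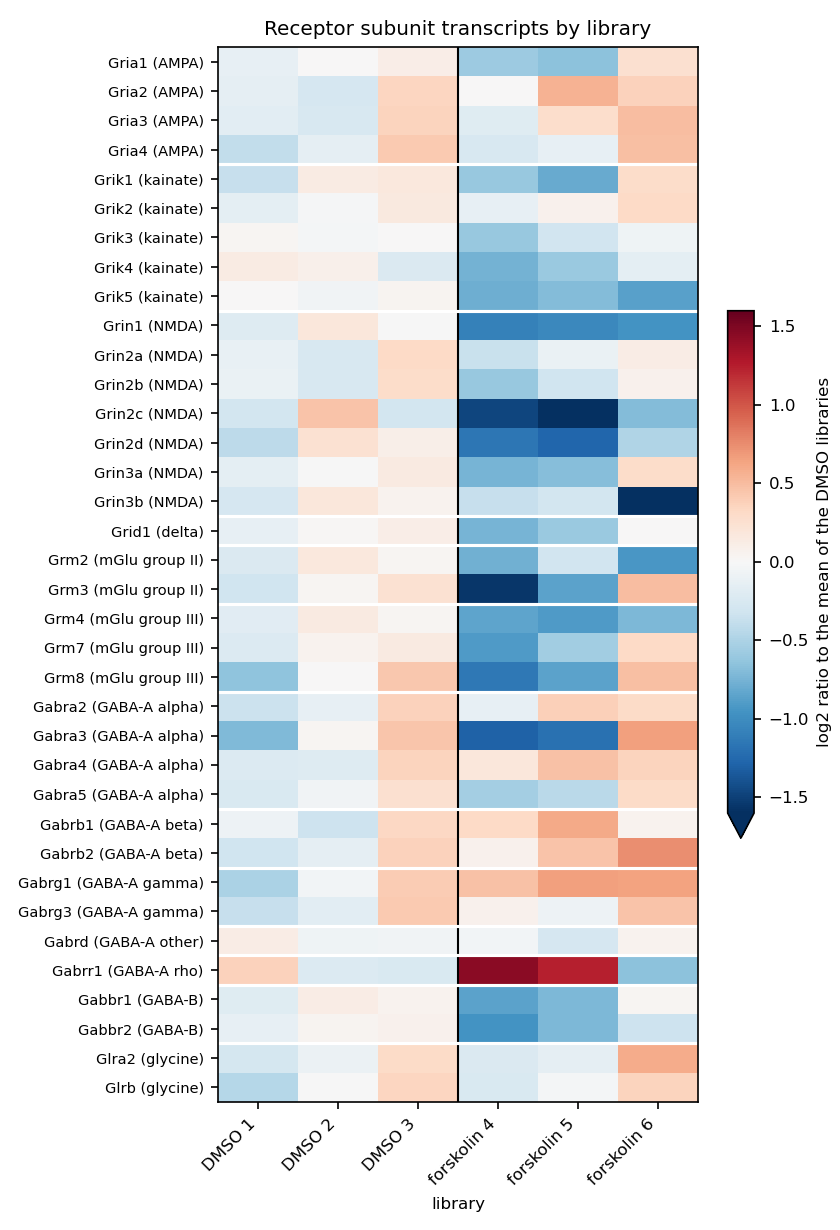
Heat map of 36 of the 41 tested receptor subunit genes (rows, grouped by class) in the 6 libraries (columns); colour is the log2 ratio of a library's CPM to the mean of the DMSO libraries, with red above and blue below. Blue in both libraries 4 and 5 turns pale or red in library 6 for many genes. Grin1, Grik5, Grm4, Grm2, Grin2c, Grin2d and Gabbr2 are among those that stay blue in all 3 forskolin libraries.

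The number of members called depended on library 6. In libraries 4 and 5, 24 and 22 of the 41 members lay below every DMSO library and 2 and 7 lay above. In library 6, 10 lay below and 21 above. Over all tested genes 38.1, 39.3 and 35.3% lay below in libraries 4, 5 and 6, and 37.5, 37.1 and 29.5% above. The median log2 ratio of the members to the DMSO mean was -0.54 and -0.30 in libraries 4 and 5 and 0.29 in library 6. That of the 10 neuron markers was -0.84 and -0.85 in libraries 4 and 5 and 0.14 in library 6, so that both medians were below 0 in libraries 4 and 5 and above 0 in library 6. The median of the 8 excitatory markers was -0.88, -0.73 and -0.16 in libraries 4, 5 and 6, and that of the 10 inhibitory markers -0.77, -0.90 and -0.03.

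Without library 6, edgeR called 17 members lower and 2 higher, of 42 tested, where 17.1% of all genes were called lower and 16.5% higher. The 17 were Grin1, Grin2c, Grin2d, Grin3a, Grik1, Grik3, Grik4, Grik5, Gria1, Grid1, Grm3, Grm4, Grm7, Gabbr1, Gabbr2, Gabra3 and Gabra5, with log2 fold changes from -1.59 for Grin2c to -0.46 for Grik3. The 2 called higher were Gabrr1 (1.35, adjusted p = 0.0113) and Glra4 (2.15, adjusted p = 0.0331). Grin1 and Grik5 had nearly the same fold changes without library 6 (-1.07 and -0.75) as with it. With libraries 4 and 5 left out instead, so that library 6 stood alone and was assumed to vary like the DMSO libraries, their log2 fold changes were -0.92 (edgeR adjusted p = 0.10) and -0.84 (adjusted p = 0.0652). No member was then called, and of all genes 0.519% were called lower and 0.0354% higher.

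**Figure D3:**
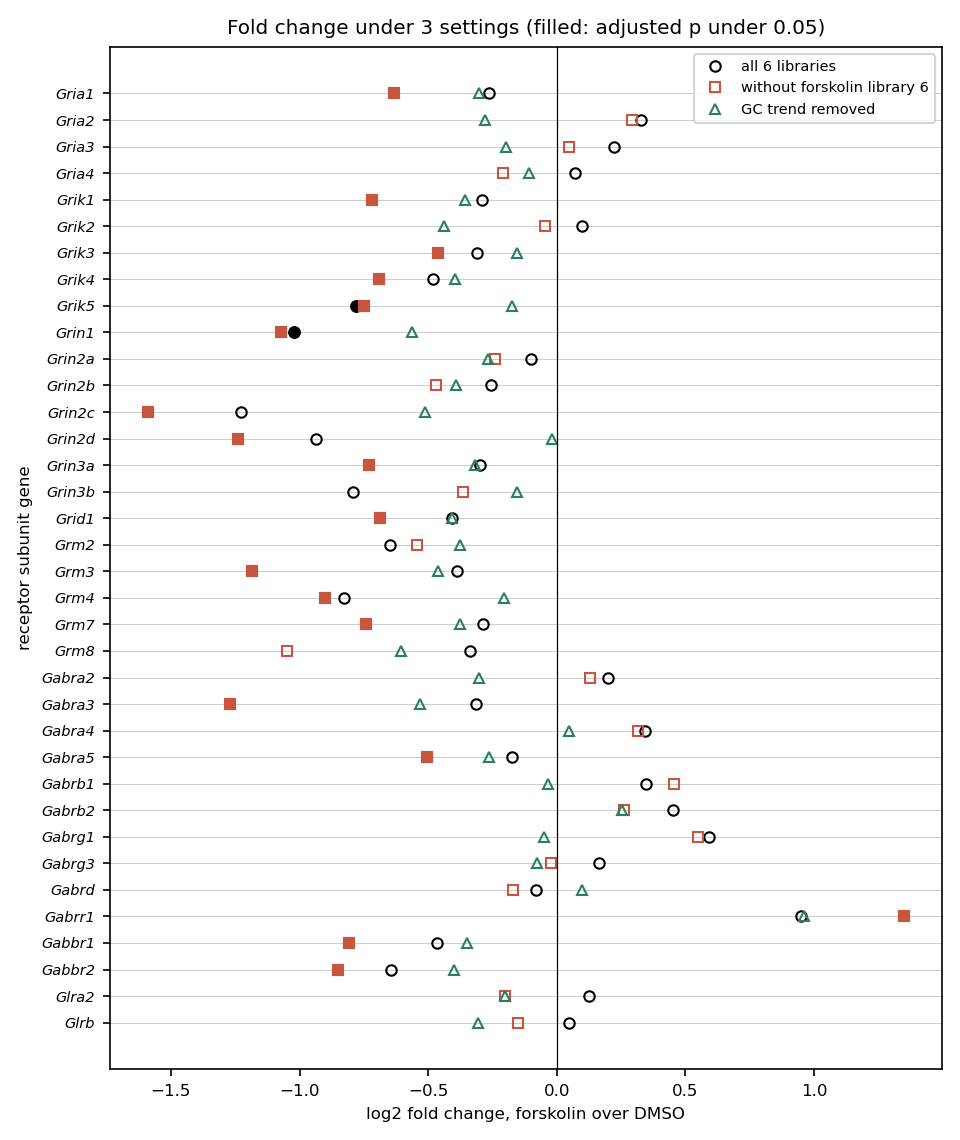
Log2 fold change (horizontal axis, forskolin over DMSO) of 36 of the 41 tested members with all 6 libraries (circles), without forskolin library 6 (squares) and with the GC trend removed (triangles); filled symbols have an edgeR adjusted p under 0.05. Only Grin1 and Grik5 are filled with all 6 libraries, no triangle is filled, and without library 6 the filled squares are 17 lower members and Gabrr1 (Glra4, also called then, was not tested with all libraries and is not drawn).

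Each member's CPM was also expressed as a percentage of the summed CPM of the 10 neuron markers in the same library. The sum weighs abundant markers most and GC content was not adjusted, so this percentage does not measure receptor RNA per neuron. Grin1 stood at 3.98, 4.20 and 3.44% under DMSO and 2.82, 2.65 and 1.84% under forskolin. Grik5 stood at 1.93, 1.5 and 1.5% and then 1.46, 1.41 and 0.820%. Both remained lower in all 3 forskolin libraries, Grik5 narrowly. On this scale 7 members lay below every DMSO library (Grin1, Grin2c, Grin2d, Grik5, Grid1, Grm4 and Gabbr2), 7 of 41, where 3.25% of all tested genes did. A further 12 lay above (among them Gabra4, Gabrb2, Gabrg1, Gabrg3, Glra2, Glrb, Gria2, Gria3, Gria4 and Grik2), 12 of 41, where 12.8% of all tested genes did. Gria2, for example, went from 7.50, 5.56 and 7.91% to 10.8, 14.5 and 8.34%. The 7 below have transcripts of 49.9 to 65.0% GC, and those named above every DMSO library have 35.3 to 44.3%.

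The fold changes of the members were ordered by transcript GC content. Across the 41 members log2 fold change and the GC content of the longest transcript had a Spearman correlation of -0.80, and across 15769 tested genes with a value it was -0.51; genes share libraries and are not replicates, so these are descriptions. Of 13 members with a GC content of 50% or more, 12 had negative fold changes, with a median of -0.65, and Gabrr1 was the exception. Of 18 members under 45%, 14 had positive ones, with a median of 0.18. Of all tested genes, 31.5% of those at 50% or more had positive fold changes, with a median of -0.20, and 82.5% of those under 45%, with a median of 0.31. The direction of this ordering was thus the same over all genes, and the members' median lay lower than that of all genes in both ranges. The 10 members between 45 and 50% differed: 1 was positive, with a median of -0.29, where 57.5% of all genes in that range were positive, with a median of 0.06. Grin1 and Grik5 have transcripts of 59.4 and 61.7% GC, and Gria2 and Gabrg1 of 36.8 and 35.3%. Among the 18 ionotropic glutamate receptor genes whose 7 shared residues are printed above in part, the correlation of log2 fold change with the GC content of codon ends was -0.86.

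**Figure D4:**
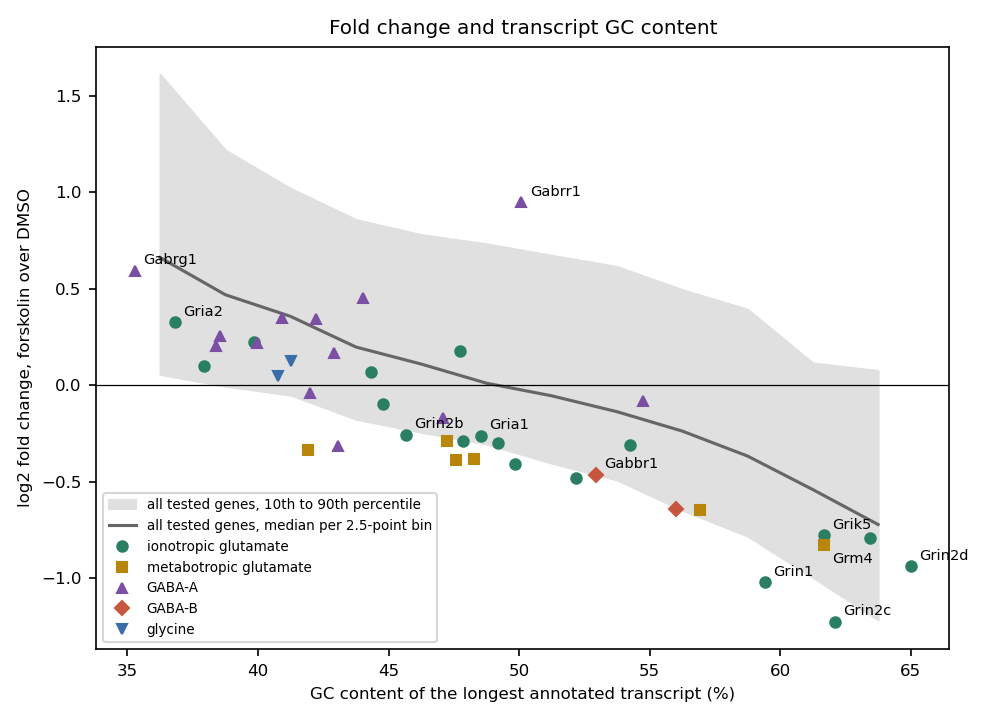
Log2 fold change (vertical axis) against GC content of the longest annotated transcript (horizontal axis, percent) for the 41 tested members, with symbols by receptor family; the line and band are the median and the 10th to 90th percentile of all tested genes in bins of 2.5 percentage points that hold at least 100 genes. The members follow the slope of all genes and lie mostly below its median line, with Gabrr1 far above it.

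With the GC trend removed, 36 of the 41 members had negative log2 fold changes, with a median of -0.28 against -0.01 for all genes, and 0 were called. Under both changes together, the GC trend removed and library 6 left out, 23 members were called lower and 2 higher, where 18.1% and 15.2% of all genes were. Some members of low GC content that had been positive, Gria2 (-0.48), Glrb (-0.59) and Grik2 (-0.73), were then among those called lower, and Grik5 (-0.28, edgeR adjusted p = 0.102) and Grin2d were not. Grin1 was called, at -0.73 (adjusted p = 0.00905).

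The balance of receptor classes within a library does not depend on its scaling. NMDA receptor genes made up 18.3, 16.7 and 18% of the summed CPM of the 52 members under DMSO and 15.6, 15.5 and 15.3% under forskolin, without overlap. GABA-B receptor genes made up 21.1, 23.0 and 18.9% and then 15.6, 14.9 and 17.7%, again lower in every forskolin library. The GABA-A alpha genes made up 8.31, 8.98 and 10.1% and then 10.5, 11.2 and 10.8%, and the gamma genes 1.43, 1.79 and 2.02% and then 2.41, 2.43 and 2.35%, both higher in every forskolin library. AMPA receptor genes made up 25 to 26.1% and then 26.5 to 28.5%. With the GC trend removed the delta genes were still lower in every forskolin library (2.04 to 2.14% and then 1.95 to 2.01%). The groups then overlapped for the other classes plotted, among them NMDA (16.0 to 17.9% and 15.4 to 16.8%), GABA-B (18.1 to 20.2% and 16.8 to 19.4%) and GABA-A alpha genes (9.13 to 10.1% and 10.1 to 10.4%).

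**Figure D5:**
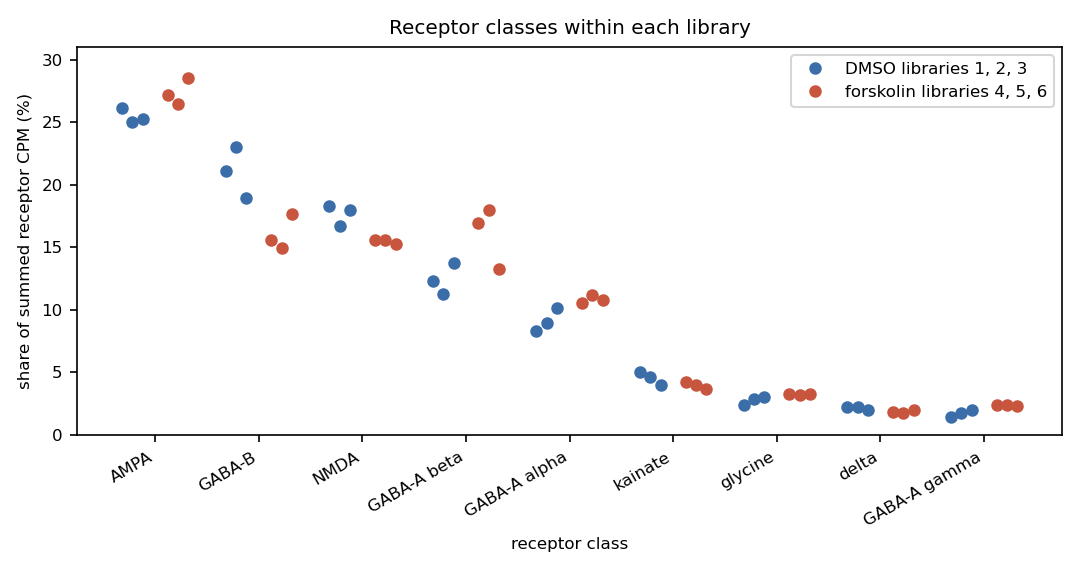
Share of each receptor class in the summed CPM of the 52 members (vertical axis, percent, from 0) in DMSO libraries 1 to 3 (blue) and forskolin libraries 4 to 6 (red), for the 9 classes with the highest shares. The forskolin points lie below all DMSO points for GABA-B, NMDA and delta genes and above them for AMPA, GABA-A alpha, GABA-A gamma and glycine receptor genes.

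The proteins that assemble, anchor and supply these receptors were taken as 6 lists. By edgeR no gene of a list was called higher and 8 genes were called lower, where 1.34% of all tested genes were. DESeq2, which called 6.03% of all genes lower and 4.90% higher, called more: 7 scaffold genes, 6 AMPA and kainate auxiliary subunits, 2 organisers, 2 clustering genes and 2 genes of transmitter synthesis and transport lower, and 1 auxiliary subunit and 2 organisers higher. Of 19 scaffold and trafficking genes edgeR called 4 lower, with a list median of -0.42. They were Dlgap3, Shank3, Dlgap4 and Shank1. Dlgap3, a postsynaptic density protein, had 164, 172 and 156 CPM under DMSO and 70.1, 65.3 and 52.2 CPM under forskolin (log2 fold change -1.39, edgeR adjusted p = 0.0216). Shank3, its binding partner, had 145, 153 and 145 CPM and then 81.2, 78.6 and 68.3 CPM (-0.96, adjusted p = 0.0276). The log2 fold changes of Dlgap4 and Shank1 were -0.80 and -0.95, with edgeR adjusted p-values of 0.0371 and 0.0417.

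Of 17 auxiliary subunits of AMPA and kainate receptors 2 were called lower, with a list median of -0.41. Cacng8 encodes TARP gamma-8, the main hippocampal AMPA receptor auxiliary subunit, and had 47.4, 45.2 and 42.9 CPM and then 26.2, 25.2 and 25.4 CPM (log2 fold change -0.82, edgeR adjusted p = 0.0277). Cnih2, a cornichon that slows AMPA receptor gating, had 253, 252 and 231 CPM and then 126, 132 and 150.1 CPM (-0.85, adjusted p = 0.0371). Of 13 extracellular organisers 2 were called lower, C1ql2 (-1.16, adjusted p = 0.0371), which binds kainate receptors, and Lrrtm1 (-0.65, adjusted p = 0.0378), a postsynaptic adhesion protein. By edgeR none was called among 10 tested genes of GABA-A and glycine receptor clustering (median -0.29), 3 GABA-B auxiliary subunits (-0.09) and 15 tested genes of transmitter synthesis and transport (-0.19). The 8 called genes have transcripts of 54.7 to 65.1% GC, a range that holds Grin1 and Grik5. Without library 6, when 17.1% of all genes were called lower and 16.5% higher, edgeR called 13 scaffold genes, 11 AMPA and kainate auxiliary subunits, 8 organisers, 6 clustering genes and 6 genes of transmitter synthesis and transport lower, and 0, 1, 2, 0 and 1 higher. No GABA-B auxiliary subunit was called in either direction then, and with the GC trend removed no gene of any list was.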

How the data were processed

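The authors deposited raw counts, whole numbers per gene symbol with 1 column per library. Salmon, DESeq and the build GRCm38 are named, without roles or versions, in the submitters' processing notes; annotation and strand setting are not given in the sources used here, and counts made by Salmon would be estimates. The authors' deposited comparison table holds a normalised signal, log2 fold changes, test scores and p-values per the file headers, and was used only to look for members.

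Members and gene lists were chosen with earlier results of these data known. Genes with enough counts (filterByExpr, minimum count 10, minimum total 15) were fitted with edgeR 4.0.16 in R 4.3.3 (TMM factors, glmQLFit, glmQLFTest, intercept and group) with Benjamini-Hochberg adjustment over every tested gene and a threshold of 0.05. The SE is the absolute log2 fold change over the square root of F. CPM used TMM-scaled library sizes. Log2 ratios of single libraries used a pseudocount of 0.05 CPM. Transcript length, GC content and exon overlaps came from GENCODE M21, and promoters from RefSeq, matched by symbol. The GC trend was a lowess fit (span 0.3) of log2 CPM per library, removed through offsets. Values were named for members called, for the highest and the smallest-p member of each class, for Gria2, Grin2a, Grin2b, Gabra5 and Gabrd, and for the 5 largest fold changes; other members were named after their values were seen. Some tested members are not reported here. DESeq2 1.42.0 and limma 3.58.1 were alternatives. The fit was tested on simulated data. Counts lack molecular identifiers, so the floor of 3 counts covers counting error only.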

Additional observations from a re-analysis of the deposited data

How the results depend on the processing

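No paired analysis was possible because the labels number the libraries 1 to 6 without repeating a number. Against 245 genes called, DESeq2 called 1775, quality-weighted limma 6795, upper-quartile factors 102, RLE factors 137, the GC trend removed 0, and both the GC trend removed and library 6 left out 5628; leaving out single libraries gave 0 to 5698. With libraries 4 and 5 left out, chosen after seeing the data as was the neuron marker scale, it was 94.

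Members called higher numbered 0, but 3 with quality weights (all genes 21.0%), 2 with the GC trend removed and library 6 left out, and 0 to 2 without single libraries. Members called lower numbered 2, but 5 with DESeq2, 18 with quality weights (all genes 20.9%), 3 with library size alone, 0 with the GC trend removed, 23 with library 6 left out as well, 0 with libraries 4 and 5 left out, and 0 to 17 without single libraries. Members with groups that do not overlap numbered 10 (all genes 26.5%), but 1 (all genes 16.3%) with the GC trend removed, 33 (62.1%) with library 6 left out as well, 31 (65.9%) with libraries 4 and 5 left out, 19 on the neuron marker scale, and 9 to 25 without single libraries (62.7% of all genes without library 6). The members' median log2 fold change of -0.26 was -0.56 with the GC trend removed and library 6 left out, 0.33 with libraries 4 and 5 left out, and -0.41 to -0.026 without single libraries. The difference in the Gria2 share, 8.82 points, was 0.674 with the GC trend removed and 4.57 to 12.6 without single libraries. The cause of these shifts was not tested.

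Among the members reported by name, signs turned only in those not called with all 6 libraries. Over all alternatives log2 fold changes ran from -0.50 to 0.42 for Gabra2, -1.53 to 0.69 for Gabra3 and -0.033 to 0.58 for Gabrb1. They ran from -0.29 to 0.49 for Gabrg3, -0.48 to 0.53 for Gria3 and -0.40 to 0.52 for Gria4. For Grik1 they ran from -0.78 to 0.33, for Grik2 from -0.73 to 0.36, for Grin3a from -0.74 to 0.33 and for Grin3b from -2.73 to 0.20. The turns below are those of other named members. Removing the GC trend gave log2 fold changes of 0.096 for Gabrd, -0.051 for Gabrg1, -0.20 for Glra2, -0.31 for Glrb and -0.28 for Gria2; with library 6 left out as well it was -0.014 for Gabra4, -0.29 for Gabrg1, -0.60 for Glra2, -0.59 for Glrb and -0.48 for Gria2. With libraries 4 and 5 left out it was 0.064 for Gabbr1, 0.34 for Gabra5, 0.094 for Gabrd, -0.63 for Gabrr1, 0.30 for Gria1, 0.046 for Grid1, 0.16 for Grin2a, 0.11 for Grin2b, 0.53 for Grm3 and 0.36 for Grm7. Quality weights gave -0.12 for Glra2 and -0.079 for Glrb, and library size alone -0.042 for Glrb. Without single libraries Gabrd ran from -0.17 to 0.039, Glra2 from -0.20 to 0.30, Glrb from -0.15 to 0.25 and Grin2a from -0.24 to 0.080. Grin1 and Grik5 were negative under each of these alternatives.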
